A study of Homo sapiens with 6 samples.

Results

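The proteasome is the large protease that degrades ubiquitin-tagged proteins in all human cells. Its core particle is a barrel of alpha rings, which gate entry, and beta rings, which hold the cutting sites. A regulatory particle caps the barrel. The base of the cap carries ATPases that unfold the substrate, and its lid removes the ubiquitin chain. Members were all annotated human genes whose symbol is PSMA, PSMB, PSMC or PSMD followed by digits only. PSMA and PSMB genes, 19 in number, make up the core particle, and the 20 PSMC and PSMD genes belong to the regulatory particle or assist its assembly. Of these 39 genes, 34 were among the 9278 genes of the m6A table, with 57 of its 26475 peaks. In the CLIP tables, 2 of 681 genes in replicate 1 and 2 of 956 genes in replicate 2 were members, leaving out lines with a blank gene identifier.

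All 6 samples came from HEK293T, a cell line of human embryonic kidney origin. The mark m6A (N6-methyladenosine), a methyl mark on messenger RNA that is known to gather around stop codons and to favour the sequence GGACU, was mapped by immunoprecipitation of methylated RNA. There was 1 immunoprecipitated and 1 input library after siRNA knockdown of TRMT10A, a guanosine methyltransferase of tRNA, and 1 of each after a control knockdown. Sites of contact between TRMT10A and RNA were read from crosslinking followed by immunoprecipitation (CLIP), with 2 replicates, whose siRNA label reads TRMT10A, and no control immunoprecipitation was analysed here. The CLIP tables held 342690 conversion events in 1675 clusters in replicate 1 and 496030 events in 2183 clusters in replicate 2. The m6A table gives 1 list of peaks and 1 ratio per line with no counts, so the depth behind its peaks is unknown and the knockdown of TRMT10A itself was not checked.

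The sequences that carry the results are of 2 kinds. The first are the sites in member peaks that hold GGACT, the DNA spelling of GGACU, shown because this is the best-known m6A context and because it was present in few member peaks. They are given 5′ to 3′ on the sense strand with 12 bases on each side, with the motif in capitals, as read from GENCODE release 29 transcripts.
PSMB3: gatggtgaccacGGACTtccagaagatct
PSMB4: gggtcgcggtccGGACTttgggcgggggg
PSMB7: ggtgtgagaaagGGACTactgcagtcctc
PSMC3: caatattgacctGGACTcccagaggaagg
PSMC5: gagatgattggtGGACTggacaaacagat
PSMD11: gcagagcttggaGGACTcctgaagtatgt
PSMD12: caagatggaggtGGACTacagcgccacgg

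All 7 sites lay in coding sequence (GRCh38). The shown PSMB3 stretch is chr17:38753245-38753273 on the plus strand in exon 2, and that of PSMB4 is chr1:151399603-151399631 on the plus strand in exon 1. The PSMB7 stretch is chr9:124353667-124353695 on the minus strand in exon 8. The PSMC3 stretch is chr11:47424642-47424670 on the minus strand in exon 4, and the PSMC5 stretch is chr17:63830394-63830422 on the plus strand in exon 6. The PSMD11 stretch crosses an exon junction between chr17:32447043 and chr17:32454519 on the plus strand. The PSMD12 stretch is chr17:67366450-67366478 on the minus strand in exon 1.

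The second kind are the TRMT10A CLIP clusters on member transcripts, shown because they are the entire CLIP record of the proteasome genes in both replicates. Capitals mark the cluster. The region named is that given for the listed transcript and can differ on other transcripts of the gene. Of the 32 bases of the PSMB5 cluster, the first 30 are given.
PSMB4, replicate 1, coding: agcCGGCGCTCGAAGATGAACCCTTTgtgg
PSMB5, replicate 1, 3′ UTR: CAGGGGCCACCTTCTCTGTAGGTTCTGGCT
PSMB2, replicate 2, coding: gtgtgTTGGAGAGGCTGGAGACACTgtaca
PSMD2, replicate 2, coding: gctcgttGGCTTCCTCTTGGACtgggtctc
PSMD2, replicate 2, 3′ UTR: ttcTGGGGGAATTGTCGCCTCCTGCTCttt

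The first comparison asked which proteasome transcripts carried m6A peaks. Nearly all subunits of the particle that every cell builds were listed. All 7 alpha ring genes (PSMA1 to PSMA7) and all 7 constitutive beta ring genes (PSMB1 to PSMB7) had at least 1 peak, as did all 6 base ATPase genes (PSMC1 to PSMC6) and all 8 lid genes. PSMD4, a base subunit that binds ubiquitin chains, was the exception among the 31 constitutive subunit genes. Over all members, 87.2% were listed (34 of 39, 95% Wilson interval 73.3 to 94.4), against 44.6% of 20056 protein-coding genes. Of the core members 15 of 19 were listed (78.9%, 56.7 to 91.5), and of the regulatory members 19 of 20 (95%, 76.4 to 99.1). These intervals overlap, and like all intervals given here they cover counting error only. A peak can be seen only in a transcript that is present, and no RNA levels were in the tables, so the part of expression in these shares was not tested.

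The 5 members without a listed peak were PSMD4 and 4 tissue forms of core subunits. PSMA8 is an alpha subunit of the testis, PSMB8 and PSMB10 are interferon-inducible catalytic subunits of the immunoproteasome, and PSMB11 is the catalytic subunit of the thymus. PSMB9, the other inducible catalytic subunit, had 1 peak at transcript positions 121 to 290. The assembly chaperone genes with a PSMD symbol, PSMD5, PSMD9 and PSMD10, were all listed, with 2, 1 and 2 peaks.

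PSMD4 has a listed copy. PIPSL, a retrocopy joining sequence of PIP5K1A and PSMD4, had 4 peaks. Its adjoining peaks at positions 2347 to 2507 and 2508 to 2623 matched a PSMD4 transcript at 96.9% identity over 161 bases and at 97.4% over 115 bases. Both matching stretches lay in PSMD4 coding sequence, at bases 822 to 991 and 993 to 1107 of a transcript whose coding sequence ends at base 1217. The 2 other PIPSL peaks aligned with PSMD4 over 26 and 12 bases only. Reads of such near-identical copies may be divided between the genes, so the listing of PIPSL and the lack of a PSMD4 line are both uncertain. PSMA3 and PSMD5 have antisense neighbours, PSMA3-AS1 and PSMD5-AS1, with 2 listed peaks each. Whether peak calling used strand is not given in the sources used.

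Core genes had fewer peaks on average than regulatory genes. Core genes with a peak had 1 or 2, 18 in all, and averaged 1.2 peaks. Regulatory genes had 1 to 5, 39 in all, and averaged 2.05. At least 2 peaks were listed for 3 of 15 core genes (20%, 7.05 to 45.2) and for 13 of 19 regulatory genes (68.4%, 46.0 to 84.6), against 71.6% of all listed protein-coding genes. The core genes with 2 peaks were PSMA2 and PSMA6 of the alpha ring and PSMB7, which carries the trypsin-like site. No core gene had more. The single peaks of the other alpha ring genes were at 398 to 592 in PSMA1, 91 to 190 in PSMA3, 782 to 976 in PSMA4, 73 to 230 in PSMA5 and 164 to 420 in PSMA7. Among the beta ring genes, PSMB3 had its peak at 173 to 327, PSMB4 at 82 to 240 and PSMB6 at 231 to 354. All positions count from the first base of the transcript named in the table.

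PSMD1 and PSMD2, the large scaffold subunits of the base, led the regulatory particle. PSMD1 had 5 peaks, at transcript positions 31 to 232, 1601 to 1720, 2009 to 2110, 2181 to 2380 and 3051 to 3217. They ran from the start codon region to the 3' UTR. PSMD2 had 4, at 196 to 364, 365 to 514, 601 to 830 and 921 to 1220. The coding sequence of its matched GENCODE transcript begins at base 559. On that transcript, whose ends can differ from those of the listed one, all 4 stood in the 5' UTR or the early coding sequence. The lid genes PSMD11 and PSMD13 had 3 peaks each, and PSMD11 held the widest member peak, of 587 bases, at 117 to 703. The PSMD13 peaks stood at 1015 to 1180, 1311 to 1501 and 1502 to 1676. The remaining 15 regulatory genes had 1 or 2. Among them PSMD14, the deubiquitinase of the lid, had 1 at 773 to 940.

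Pooled per base of transcript the core stood above the regulatory particle, whereas within bins of transcript length the regulatory genes had the higher mean wherever both were present. The listed core transcripts had a median length of 988 bases and the regulatory ones of 1954 bases, whereas other listed genes had a median of 3189 bases. Per 1000 bases of transcript, core genes had 0.916 peaks, regulatory genes 0.848 and other listed genes 0.737, each pooled over the set. On the count per listed gene, core over regulatory stood at 0.585, with a counting interval of 0.337 to 1.01 that includes equality. Every listed gene has at least 1 peak, so this interval does not describe the spread among genes. Among transcripts of 1000 to 2000 bases, the 4 core genes averaged 1.5 peaks, the 10 regulatory genes 1.80 and 1695 other listed genes 1.65. Below 1000 bases, 8 core genes averaged 1.12 and 344 other genes 1.28. Between 2000 and 3000 bases the 1 core gene had 1 peak, the 3 regulatory genes averaged 1.33 and 2142 other genes 2.23. Between 3000 and 5000 bases the 1 core gene had 1 peak, the 6 regulatory genes averaged 2.83 and 2620 other genes 3.02. With 1 core gene in each of these bins, there is no spread to set the difference against. PSMA4 matched no GENCODE transcript and has no length here.

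**Figure D1:**
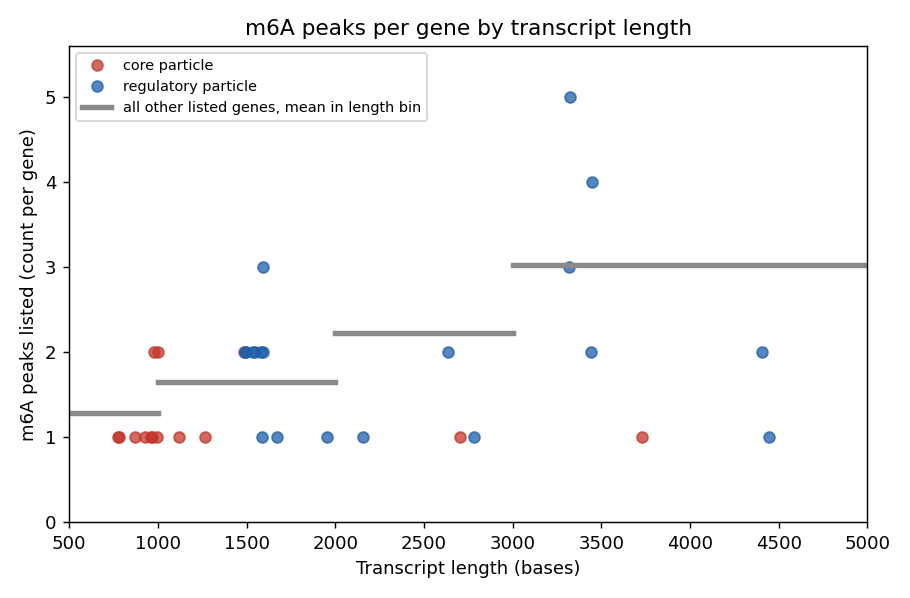
Number of listed m6A peaks per gene (vertical axis) against transcript length in bases (horizontal axis). Red points are core genes, blue points regulatory genes, and grey lines give the mean of all other listed genes in each length bin. Most core genes stand at 1 peak below 2000 bases, near the grey mean of 1.28 or 1.65. PSMD1 and PSMD2 reach 5 and 4 peaks above 3000 bases. The 6 regulatory genes of 3000 to 5000 bases averaged 2.83 peaks, against 3.02 in other genes.

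The second comparison asked where on the transcript the peaks lay. Positions could be read for 50 peaks on 30 member transcripts, 17 of the core and 33 of the regulatory particle. Left out were the peaks of PSMA4, of PSMC2 and PSMC6, whose matched transcripts have no annotated 5' UTR, and of PSMD13, whose last peak ends past the matched transcript. Start and stop codons are those of the matched transcript. They can lie elsewhere on other transcripts of the gene, PSMA6 and PSMB5 included, which were not examined. By midpoint, 42 of the 50 peaks lay in coding sequence (84.0%, 71.5 to 91.7), 4 in the 5' UTR (8.0%) and 4 in the 3' UTR (8.0%). Among 23233 placed peaks of other listed genes, 71.0% were in coding sequence, 9.54% in the 5' UTR and 19.5% in the 3' UTR. Coding sequence also made up more of the member transcripts, 61.8% of their length on average against 50% for the other transcripts.

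Within the coding sequence the member peaks stood early. Their median midpoint lay 26.9% of the way through it, against 47.7% in other genes. The core and regulatory medians were close to each other, at 25.6% and 27.3%. Of the 50 member peaks, 15 had their midpoint in the first of 5 equal parts of the coding sequence (30%) and 12 in the next (24.0%), against 17.8% and 13.0% of other peaks. In the last of the 5 parts there were 4 member peaks (8.0%), against 16% of other peaks. Listed members had a median transcript length of 1580 bases, against 3189 in other listed genes. The part of length in these positions was not tested.

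**Figure D2:**
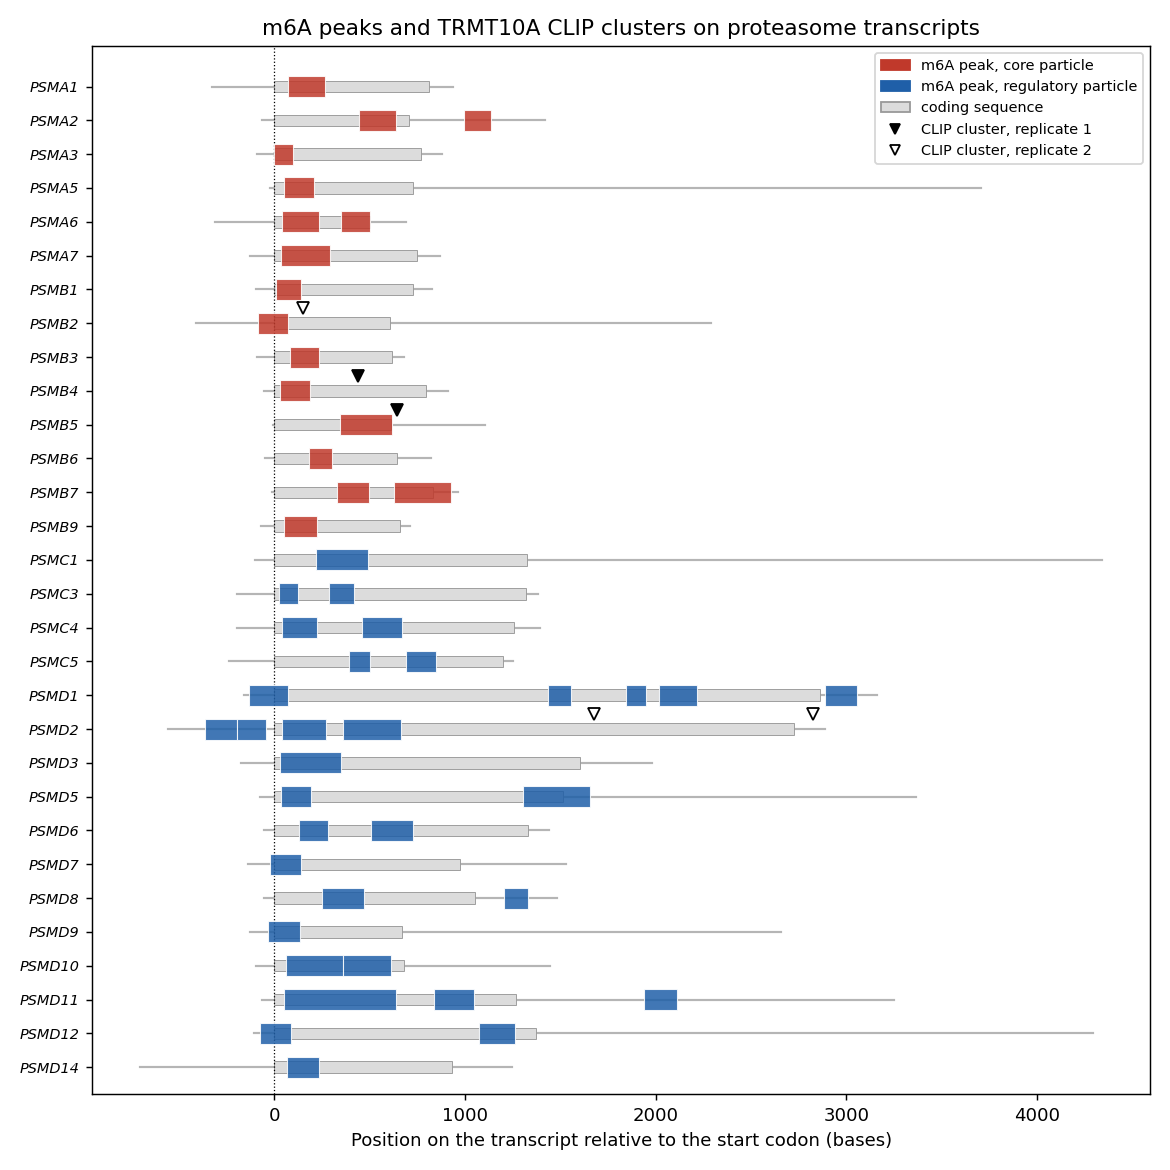
m6A peaks on the 30 member transcripts that could be placed, aligned at the start codon, with position in bases on the horizontal axis. Grey boxes are coding sequence, thin lines UTRs, red boxes peaks of core genes, blue boxes peaks of regulatory genes, and triangles, drawn above their transcript, CLIP clusters of replicate 1 (filled) and 2 (open). In 20 of the 30 transcripts a peak has its midpoint within 200 bases of the start codon (66.7%, 48.8 to 80.8), against 48.2% of 8209 other transcripts. This window was chosen after the positions had been seen. It made up 20.9% of member transcripts on average, against 13.0% of others, and the part of length in this share was not tested.

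**Figure D3:**
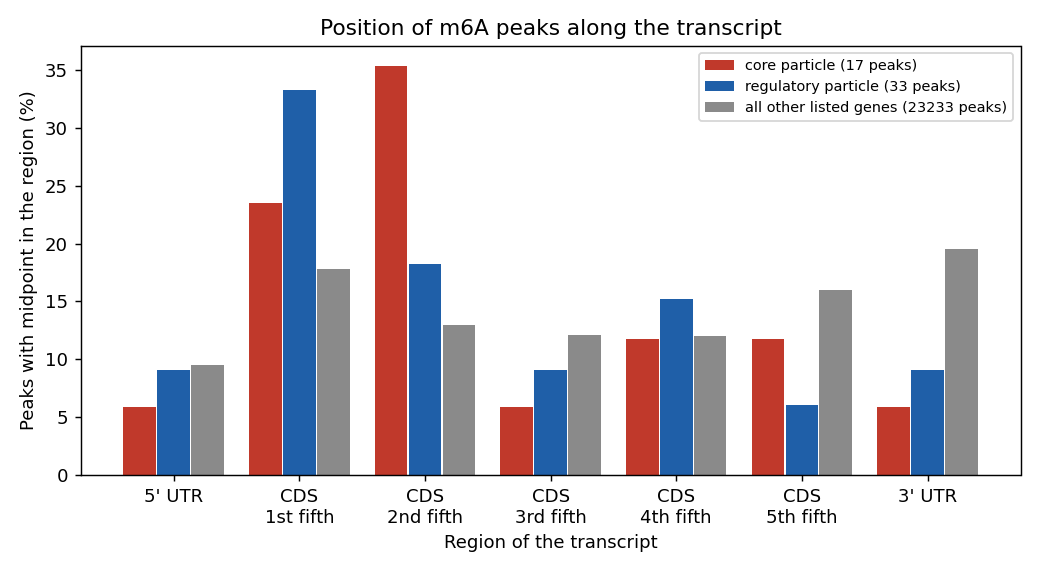
Percentage of peaks (vertical axis) with their midpoint in the 5' UTR, in 5 equal parts of the coding sequence (CDS 1 to CDS 5) and in the 3' UTR (horizontal axis). Red bars show 17 core peaks, blue bars 33 regulatory peaks and grey bars 23233 peaks of other listed genes. CDS 1 holds 23.5% of core and 33.3% of regulatory peaks, against 17.8% of other peaks. CDS 2 holds 35.3% of core and 18.2% of regulatory peaks, against 13.0% of other peaks.

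A window of 200 bases on either side of the start codon, chosen after the positions had been seen, held 21 of 50 member peaks (42.0%, 29.4 to 55.8), against 18.9% of all placed peaks. For the core it held 10 of 17 peaks (58.8%, 36.0 to 78.4) and for the regulatory particle 11 of 33 (33.3%, 19.8 to 50.4), intervals that overlap. The window made up 20.9% of member transcripts on average, 26.7% of core and 15.8% of regulatory ones, against 13.0% of other transcripts. Examples are PSMA3, whose peak covers positions 91 to 190 and begins at the start codon itself, PSMB1 at 109 to 240, PSMD7 at 117 to 278, which spans the start codon at 141, and PSMD12 at 32 to 197, which spans that at 109. PSMB2, a beta ring gene, had its peak at 327 to 484 across the start codon at 413. Within 100 bases of the start codon lay 8 of the 50 peaks (16%, 8.34 to 28.5), against 10.6% of all placed peaks, a value inside the interval.

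Transcript length moves with this measure. In other listed genes, the share of peaks in the start window was 59.9% on transcripts under 1000 bases, 34.6% at 1000 to 2000 bases, 23.4% at 2000 to 3000 and 18.3% at 3000 to 5000. Member peaks in the same bins gave 6 of 9 (66.7%, 35.4 to 87.9), 6 of 20 (30%, 14.5 to 51.9), 3 of 3 and 6 of 18 (33.3%, 16.3 to 56.3). The members' intervals include the value of other genes in all of these bins but that of 2000 to 3000 bases, where the interval of 3 peaks ran from 43.9% to 100%. In the other bins a difference from transcripts of like length was not detectable at these counts.

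Members with a single peak mostly had it near the start codon. Of 16 such transcripts, 13 had the peak in the start window (81.2%, 57.0 to 93.4), against 37.6% of 2404 other single-peak transcripts (35.6 to 39.5). Below 2000 bases the shares were 9 of 11 (81.8%, 52.3 to 94.9) for members and 45.9% of 1097 others (43.0 to 48.9). The intervals did not overlap in either case, but the window was chosen after the positions had been seen. The single-peak class was also not among the planned comparisons, so no support is drawn from this gap. Members under 2000 bases, counted with any number of peaks, were also shorter. Of them 8 were under 1000 bases and 14 from 1000 to 2000, against 344 and 1695 other listed genes. Of the 11, PSMA3, PSMA7, PSMB1, PSMB3, PSMB4, PSMB6 and PSMB9 were under 1000 bases, and PSMA1, PSMB5, PSMD7 and PSMD14 were not. The part of length among single-peak transcripts was not tested. The exceptions among the 16 were PSMB5 and PSMB6, the beta subunits with the chymotrypsin-like and caspase-like sites, and the ATPase gene PSMC1. The PSMB6 midpoint lay 240.5 bases and the PSMC1 midpoint 353.5 bases after the start codon, and the PSMB5 midpoint 481 bases after it.

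Peaks toward the 3' end were fewer. From 200 bases before the stop codon onward, 10 of 50 member peaks had their midpoint (20%, 11.2 to 33.0), against 30.1% of all placed peaks, a value inside that interval. This zone made up 42.4% of member transcripts on average and 48.6% of the others. The core held 5 of its 17 peaks there (29.4%, 13.3 to 53.1) and the regulatory particle 5 of its 33 (15.2%, 6.65 to 30.9). Both core peaks of PSMA2, at 508 to 701 and 1061 to 1200, were late, as were the second peaks of PSMA6 (661 to 814) and PSMB7 (645 to 939) and the peak of PSMB5 (355 to 627). On the regulatory side they belonged to PSMD1 (3051 to 3217), PSMD5 (1379 to 1731), PSMD8 (1260 to 1380), PSMD10 (461 to 711) and PSMD11 (2001 to 2173). By transcript, 9 of 30 members had a late peak (30%, 16.7 to 47.9), against 55.1% of 8209 other transcripts. Listed members also had fewer peaks, 1.68 per gene on average against 2.86 in other listed genes, and the part of peak number in this share was not tested. By length, the late zone held 1 of 9 member peaks on transcripts under 1000 bases (11.1%, 1.99 to 43.5), against 34.4% of other peaks. It held 6 of 20 at 1000 to 2000 bases (30%, 14.5 to 51.9), against 31.2%, and 0 of 3 at 2000 to 3000 bases (up to 56.1%), against 33.9%. At 3000 to 5000 bases it held 3 of 18 (16.7%, 5.84 to 39.2), against 31.9%. The value of other genes lies inside the members' interval in each of these 4 bins.

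The GGACT motif, searched on the sense strand, was present in 7 of the 50 member peaks (14.0%, 6.95 to 26.2), against 22.9% of all peaks with a readable sequence, which lies inside the interval. The core had it in 3 of 17 peaks and the regulatory particle in 4 of 33. No member peak held more than 1. The shorter run GGAC was present in 26 of 50 member peaks (52.0%, 38.5 to 65.2), against 62.1% of other peaks. The 30 member transcripts held 55 GGACT motifs in 58765 bases. Of these, 7 stood in a listed peak, and peaks covered 9752 of the bases. In PSMB4 the motif begins at base 28 of the coding sequence, at the first base of the peak at 82 to 240. In PSMB7 it begins at base 749 of the coding sequence, in the late peak.

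How m6A on these transcripts differed between TRMT10A knockdown and control could be asked for few peaks. The gene columns and the ratio columns are sorted apart in the authors' deposited table, so a ratio can be tied to a gene only through listed motif positions. Of the ratios in the authors' deposited table, 284 could be joined through 2 or more motifs, and 0 of them fell on a member. No member peak with a readable sequence held 2 or more GGACT motifs, so for those peaks this outcome was fixed in advance. Through a single motif, the PSMB4 peak had 1 candidate line. Among peaks matched to a transcript it was the only one with that position and region. Unmatched peaks could not be searched, so the line may belong to another gene. The log2 ratio of knockdown over control on this candidate line in the authors' deposited table was 0.70, called common. The median of all 26475 lines was 0.17, and 26.1% of lines were at or above 0.70. PSMC5, an ATPase gene, had 2 candidate lines in the authors' deposited table, at 0.33 (common) and 0.43 (unique), of which at most 1 can be its own. For PSMB3, PSMB7, PSMC3, PSMD11 and PSMD12 several peaks shared the position, so no ratio was assigned. A join through 1 motif is uncertain, and with 1 library of each kind per arm there is no replicate check.

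The third comparison asked which members TRMT10A contacted. In either replicate, 4 of 39 members had a CLIP cluster (10.3%, 4.06 to 23.6), against 4.12% of protein-coding genes. In replicate 1 there were 2 (5.13%, 1.42 to 16.9), against 2.19%, and in replicate 2 also 2, against 3.38%. No member was listed in both replicates (0 of 39, up to 8.97%), against 1.44% of protein-coding genes. These 4 backgrounds lie inside the members' intervals. All 4 members had exon clusters, against 3.08% of protein-coding genes with an exon cluster in either replicate, a value below the members' interval of 4.06 to 23.6. Among genes with an m6A peak, the share with a cluster in either replicate was 4 of 34 members (11.8%, 4.67 to 26.6), against 7.19%. This background lies inside the interval. No RNA levels were in the tables, so the part of expression in these CLIP shares was not tested.

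PSMB4, a beta ring gene without a cutting site, had 2 conversion events in replicate 1 and no cluster in replicate 2. The cluster lay at chr1:151400524-151400546 on the plus strand, in exon 3 and coding sequence, 244 bases past the end of its m6A peak. PSMB5 had 3 events in replicate 1 and no cluster in replicate 2, at chr14:23026308-23026339 on the minus strand in exon 4. The file placed it in the 3' UTR. The cluster begins at base 636 of the matched transcript, 9 bases past the last base of the PSMB5 m6A peak. That peak spans the end of this transcript's coding sequence at base 621. The region was not checked on other PSMB5 transcripts and can differ on them. PSMB2 had no cluster in replicate 1 and 2 events in replicate 2, at chr1:35636365-35636384 on the minus strand, in exon 2 and coding sequence, 68 bases past the end of its m6A peak.

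PSMD2 was the only regulatory gene listed. It had no cluster in replicate 1 and 2 clusters in replicate 2. The coding cluster, at chr3:184305898-184305912 on the plus strand in exon 13, had 2 events, and the 3' UTR cluster, at chr3:184308977-184309000 in exon 21, had 3. They lay 1008 and 2152 bases past the end of the nearest m6A peak. The 15 bases of the coding cluster also occur in transcripts of 2 other genes, AC009558.2 and AL359918.1, so its source is uncertain, whereas the other 4 cluster sequences were found in no other gene's GENCODE transcripts. Of the 5 clusters, 0 overlapped an m6A peak (up to 43.4%), against 24.6% of 984 exon clusters that could be placed on a transcript of the m6A table. Likewise 0 of 5 overlapped a cluster of the other replicate (up to 43.4%), against 31.1% of 1324 exon clusters of protein-coding genes. Both backgrounds lie inside the interval of 5 clusters.

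The core particle thus had 3 of the listed genes and the regulatory particle 1, with counts too low to set them apart. Member clusters summed to 5 of 342690 events in replicate 1 and to 7 of 496030 in replicate 2, and each had 2 or 3 events. The smallest exon clusters of protein-coding genes in the tables had 2. Of 477 exon clusters of protein-coding genes in replicate 1, 73.4% had 3 events or fewer, and of 847 in replicate 2, 76.5% did.

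**Figure D4:**
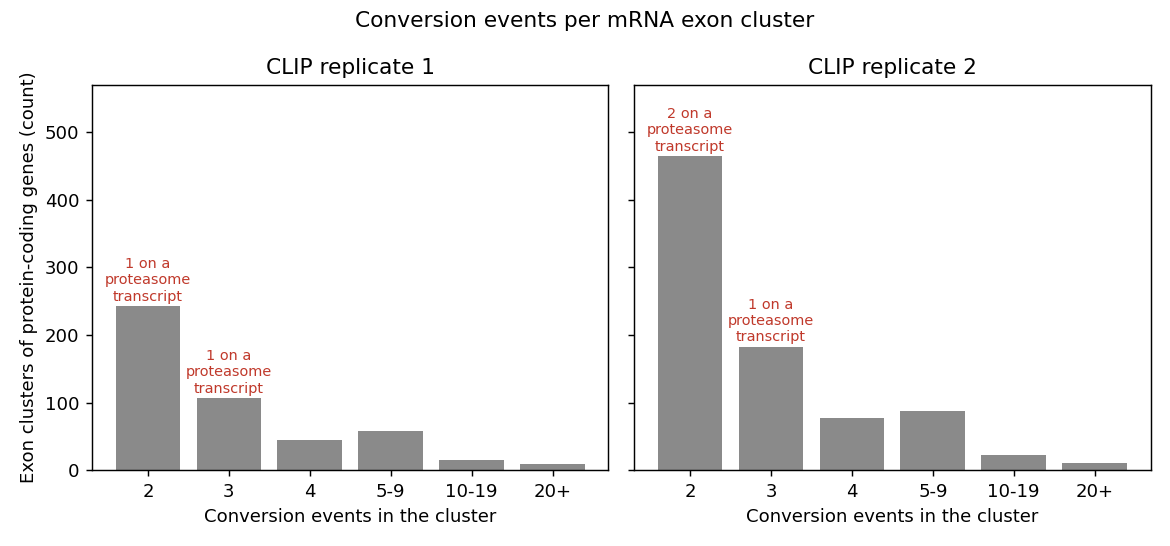
Number of exon clusters of protein-coding genes (vertical axis) by conversion events in the cluster (horizontal axis) in CLIP replicate 1 (left) and replicate 2 (right). The red labels count the clusters on proteasome transcripts. All 5 stand in the columns of 2 or 3 events.

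Other genes of the pathway were also mostly listed in the m6A table. Of 31 genes for proteasome assembly, activation, substrate delivery and ubiquitin, 28 had a peak (90.3%, 75.1 to 96.7), against 44.6% of 20056 protein-coding genes. As with the members, the part of expression in this share was not tested. All 5 core assembly chaperone genes (PSMG1 to PSMG4 and POMP) had exactly 1 peak each. The activator genes PSME3 and PSME4 had 5 and 4, and the shuttle receptor gene UBQLN2 had 5. NFE2L1, the factor known to raise transcription of proteasome genes when the protease is impaired, had 3. PSME2, which encodes an activator subunit, and the ubiquitin gene UBB had none.

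In CLIP, RPS27A, which encodes ubiquitin fused to a ribosomal protein, had 5 events in replicate 1 and 11 in replicate 2. UBA1, the main ubiquitin-activating enzyme, had 2 in each replicate. NPLOC4, a cofactor of the segregase VCP, had 2 events in replicate 1 and no cluster in replicate 2. VCP itself had no cluster in replicate 1 and 2 events in replicate 2, and UBB had no cluster in replicate 1 and 3 events in replicate 2. Ubiquitin genes share coding sequence, so events at UBB and RPS27A are uncertain.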

How the data were processed

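Sample titles gave the groups. Per the file headers, the authors deposited raw counts of clusters and of conversion events in each CLIP table. Whether their positions start at 0 or 1 is not stated, and they were read as 1-based. For m6A the authors deposited 1 log2 ratio per line, of TRMT10A knockdown over control, with peak positions on RefSeq transcripts. The submitters' processing notes name TopHat2, Cuffdiff and hg38 without saying what each was used for. No source used here names a peak or cluster caller.

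Peaks were placed by midpoint on GENCODE release 29 transcripts linked to the same accession (98.2% of member and 97.3% of other peaks matched). Transcripts without a 5' UTR or 3' UTR, or ending before a listed peak does, were left out, which kept 50 of 57 member peaks. RefSeq and GENCODE ends can differ. Listed motif positions point to the base 3 after the motif's start, the offset that joined 284 ratios. Of the lines with a listed motif, 6.05% had a motif inside the peak that the gene columns give on the same line. Mapping code was tested on simulated transcripts. A cluster listed on several lines was counted once. Protein-coding genes and their identifiers came from RefSeq (GRCh38.p14). Shares carry 95% Wilson intervals, and the ratio of peaks per gene a counting interval, computed with scipy 1.17.1. They cover counting error only. No test was made, because genes and peaks are not replicates. Whether both CLIP replicates are separate cultures is not stated.

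Described in full, by rule, were every member with a CLIP cluster, the members of each particle with most peaks, and any member with a joined ratio. The members, gene lists and rules were chosen with earlier results of these data known. Some genes of the pathway list are not reported here.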

Additional observations from a re-analysis of the deposited data

How the results depend on the processing

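Of 31 alternatives over 14 results, 22 stayed within the counting interval or within 1.5 times the count. Counting peaks per 1000 bases of transcript, pooled, turned core over regulatory round, to 1.08. With at least 2 peaks required, 16 members and 3 core members remained listed. A window of 100 bases around the start codon held 16% of member, 17.6% of core and 15.2% of regulatory peaks, a setting chosen after seeing the data, and the narrower window by construction holds fewer. No member kept a CLIP cluster at 5 or more events (0), and leaving out replicate 1 or replicate 2 gave 2 members each (lowest 2, highest 2). Placing peaks on every matched coding transcript, also chosen after seeing the data, left the late and start shares inside their intervals. No paired analysis was possible because the m6A groups carry no replicate numbers and the CLIP replicates have no second group.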
